A study of Rattus norvegicus with 78 samples.

Results

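The genes described here encode shields against complement and surface or secreted glycoproteins that sperm carry: Cd59b, Cd55, Cd46, Clu and Cd52. All 5 were on the array, each with 1 probe set among 29214 (14506 genes have a probe set with exactly 1 symbol), so the rule of taking the probe set of highest mean over the 78 arrays left no choice to make. The mean level per probe set is the value the rule used, and it is given only as a description. The label of the group rests on what the proteins are known to do, and the array measured transcripts alone.

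The study collected sperm from the cauda epididymis of Fischer 344 rats, on 1 array per sample. Rats were given corn oil (20 arrays) or 1,2-dibromo-3-chloropropane at 5 mg/kg/day (DBCP, a soil fumigant toxic to male germ cells, 20 arrays), with 3 months of exposure stated for the series. Another 19 arrays of corn oil rats and 19 of DBCP rats were collected after a recovery period. Its length, the route and the age of the rats were left unstated in the labels. The labels call the arrays biological replicates without saying that each came from a separate rat, so a p-value sets a difference against the spread between these samples.

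Complement is a cascade of plasma proteins that tags foreign cells and drives pores through their membranes. Host cells escape by carrying inhibitors at successive steps, and sperm, which meet female immune defences, are known to carry several. Ripe sperm make almost no new transcripts, and in the epididymis they take up proteins that the lining epithelium releases, among them proteins held by a glycosylphosphatidylinositol (GPI) lipid anchor. The RNA of a cauda preparation can therefore come from sperm or from epithelial and immune cells released with them, and a change in the number of such cells cannot be told apart from a change in RNA per cell.

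The preparations carried sperm transcripts. Of 19 late spermatid and sperm markers on the array, 17 had a mean above the median of all probe sets (6.69 on the log2 scale), with Smcp, of the mitochondrial capsule, highest at 14.13. Some markers of other cells had high signal as well. Above that median lay 17 of 22 leukocyte, 11 of 13 epididymal epithelium, 8 of 11 stroma and 5 of 7 erythrocyte markers. By definition as many probe sets lie above the median as below it, so such a count alone does not show that a cell type was present. The brightest leukocyte marker was Cd74, the class II invariant chain, at 11.38, and the brightest epithelium marker Foxi1, of acid-secreting clear cells, at 8.88. Dcn was the brightest of stroma (10.51) and Hbb that of erythrocytes (11.88). Of the markers, S100a8 of neutrophils (4.53), Lum of stroma (4.43), Ahsp of red cell precursors (5.17) and Izumo1, the egg-fusion protein of sperm (5.14), were the dimmest of their lists.

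The 5 genes sat at very different points of the signal range. The mean log2 signal over all arrays was 11.64 for Cd52, above 99.6% of probe sets counting itself, and 8.84 for Cd59b (95.1%). It was 7.27 for Clu (74.2%), 7.05 for Cd55 (65.9%) and 5.63 for Cd46 (15.8%). Probe sets differ in how strongly they bind, so these are not compared as transcript amounts. For Cd46 the signal was low enough that a change in a rare transcript may not be detectable.

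Promoters are shown for a gene that moved with collection time (Cd52) and one that did not pass that test (Cd55), from RefSeq on build GRCr8. Of the 5 genes, 3 matched the promoter table, namely Cd55, Cd46 and Cd52. Each stretch runs from 250 bases before to 50 after the gene start, and capitals mark GC boxes, the letters GGGCGG on either strand. The Cd52 stretch is chr5:151605047-151605346, minus strand, and that of Cd55 is chr13:44438052-44438351, minus strand.
Cd52: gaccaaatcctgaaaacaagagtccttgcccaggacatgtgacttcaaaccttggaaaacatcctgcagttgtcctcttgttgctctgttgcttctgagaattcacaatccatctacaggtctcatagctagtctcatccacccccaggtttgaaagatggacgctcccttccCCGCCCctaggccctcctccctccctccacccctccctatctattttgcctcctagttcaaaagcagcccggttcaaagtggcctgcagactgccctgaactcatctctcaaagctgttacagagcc
Cd55: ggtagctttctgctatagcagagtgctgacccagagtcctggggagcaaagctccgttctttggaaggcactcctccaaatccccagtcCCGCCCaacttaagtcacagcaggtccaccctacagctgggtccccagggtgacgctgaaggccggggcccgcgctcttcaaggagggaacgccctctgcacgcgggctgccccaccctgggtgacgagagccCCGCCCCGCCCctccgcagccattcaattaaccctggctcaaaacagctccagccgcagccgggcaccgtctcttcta

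The Cd52 promoter held 3 CpG dinucleotides and 1 GC box, while that of Cd55 held 16 CpG and 3 GC boxes, 2 of which overlap. The median over 33469 rat promoters of this length was 7 CpG, and 22.3% of them had fewer than Cd52 while 69.5% had fewer than Cd55. A GC box on either strand was found in 33.1% of those promoters. The letters TATAAA (14.2% of promoters) and AGAACA, a steroid receptor half-site (20.7%), occurred in none of the 3 matched promoters. CCAAT (37.5%) occurred once, in Cd46, which had 15 CpG. These are letter matches in this window and show no binding.

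Between the collection times a pair of the genes differed in corn oil rats: Cd59b and Cd52 were higher after recovery, while Cd55, Cd46 and Clu did not pass the test. That is 2 of 5 members higher and 0 lower, beside 24.3% of all probe sets passing in either direction, 11.5% higher and 12.8% lower. In comparisons over time, collection time, the age of the rats and any array batch cannot be told apart. Cd59b, the rat form of CD59, keeps the last complement components from closing into a pore and is held by a GPI anchor. Cd52 encodes a very short GPI-anchored peptide with a large sugar chain, known from lymphocytes and from epididymal epithelium, which passes it to sperm. The median difference over the 5 genes was 0.08, beside -0.04 over all probe sets.

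Cd59b ranged from 7.54 to 8.97 (median 8.40) on the 20 corn oil arrays from the end of exposure and from 8.76 to 9.78 (median 9.32) on the 19 after recovery. On 17 of 19 recovery arrays it lay above the highest earlier array, so the groups overlapped by a few arrays only. The log2 difference was 0.96 ± 0.13 (SE), or 1.95-fold (95% interval 1.62 to 2.33), with a limma adjusted p of 2.14e-07 over all probe sets. It was the sixth largest rise of the array (rank 6), and since the gene had been seen to rise before it was chosen, this p is not independent support.

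Cd52 ranged from 10.22 to 12.15 (median 11.29) at the end of exposure and from 11.57 to 12.61 (median 12.06) after recovery in corn oil rats. All 19 recovery arrays lay above the earlier mean, though only 7 exceeded the highest earlier array. Its difference was 0.72 ± 0.13, or 1.65-fold (1.37 to 1.98), with a limma adjusted p of 6.12e-05.

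In DBCP rats the same comparison gave 1 rise, that of Cd59b, and 0 falls among the 5 genes, beside 13.5% of probe sets passing in either direction, 7.28% higher and 6.19% lower. Cd59b went from between 7.57 and 9.96 (median 8.65) to between 8.54 and 9.74 (median 9.24). The highest value belonged to replicate 20 of the earlier group, and apart from it the highest earlier value was 9.21. The difference was 0.65 ± 0.13, or 1.57-fold (1.31 to 1.88), with a limma adjusted p of 0.000174, and 18 of 19 recovery arrays lay above the earlier mean. Cd52 ran from 10.36 to 12.43 (median 11.43) and then from 10.90 to 12.31 (median 11.87). Its difference of 0.32 ± 0.13 did not pass (limma adjusted p = 0.0956), and 15 of 19 arrays lay above the earlier mean. It passed with quantile normalization (0.37, adjusted p = 0.0447), with array weights (0.35, 0.0368) and with the sperm marker level as covariate (0.48, 0.0211). It also passed without DBCP end-of-exposure replicate 20 (0.37, 0.0404) and without DBCP recovery replicate 6 (0.37, 0.0455), so the call depends on the setting. With the leukocyte level as covariate the difference was 0.19 ± 0.15 (0.402), and with the epithelium level 0.18 ± 0.10 (0.212).

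**Figure D1:**
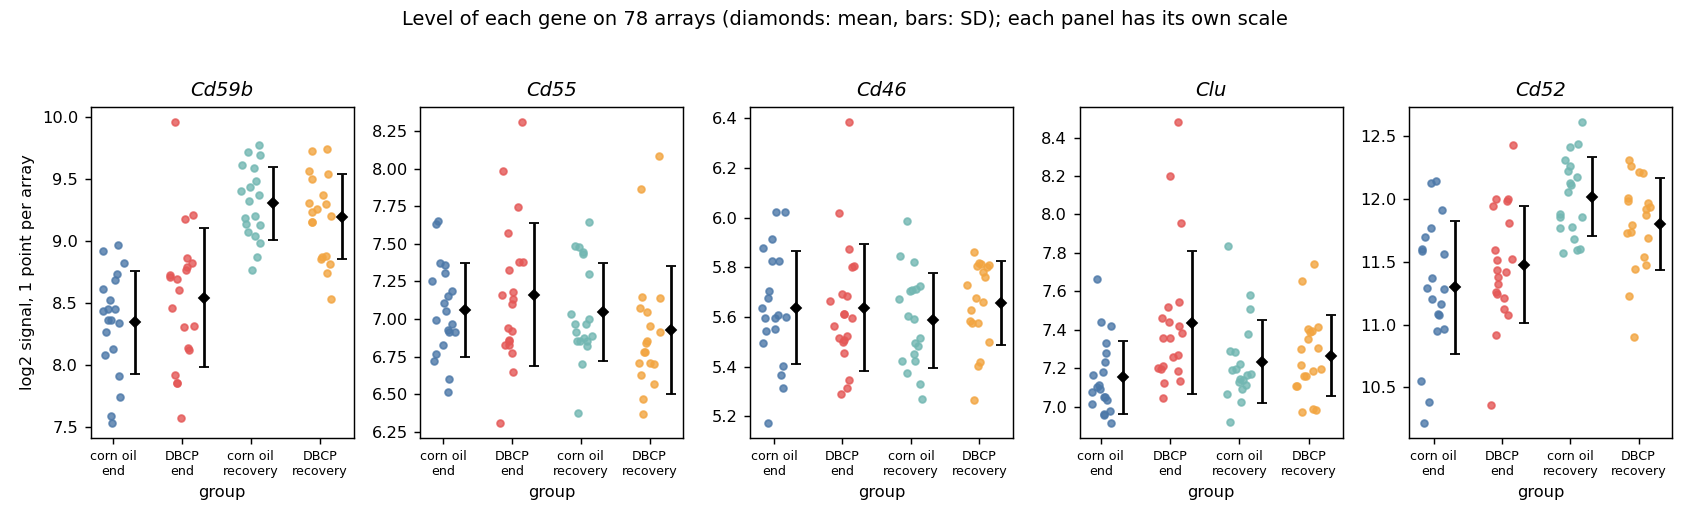
Log2 signal of the 5 genes on each of 78 arrays by group, with 1 point per array, a diamond for the group mean and a bar for the SD. Cd59b and Cd52 have higher means in both recovery groups than in the corn oil group at the end of exposure, though the arrays overlap. In that corn oil group Cd59b stayed between 7.54 and 8.97. In the other 3 panels all groups overlap as well. The DBCP end-of-exposure arrays above every corn oil end-of-exposure array number 3 each for Clu, Cd55 and Cd59b and 1 each for Cd46 and Cd52.

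The rise of Cd59b and Cd52 was larger in replicate numbers 1 to 10 than in 11 to 20, the blocks in which the samples are listed. Within numbers 1 to 10 of the corn oil rats the difference was 1.20 ± 0.16 for Cd59b (limma adjusted p = 1.14e-05) and 0.95 ± 0.18 for Cd52 (0.000348). Within numbers 11 to 20 it was 0.71 ± 0.18 for Cd59b (0.0372) and 0.49 ± 0.17 for Cd52, which did not pass there (0.102). In DBCP rats Cd59b differed by 0.88 ± 0.16 in numbers 1 to 10 (0.000587) and by 0.43 ± 0.18 in 11 to 20, where it did not pass (0.254). In corn oil rats the sets differed mainly in the earlier group. Cd59b averaged 8.15 ± 0.46 (SD, n = 10) and 8.54 ± 0.26 (n = 10) in the corn oil sets at the end of exposure, and Cd52 averaged 11.02 ± 0.49 and 11.57 ± 0.43. After recovery the Cd59b means in corn oil rats were 9.35 and 9.25 and those of Cd52 11.98 and 12.07. In DBCP rats the Cd59b means were 8.31 and 8.78 at the end of exposure, then 9.19 and 9.21. Those of Cd52 were 11.28 and 11.68, then 11.69 and 11.93, so its sets also stood apart after recovery. The difference between sets was not tested.

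Some markers of other cells moved along with this rise. In corn oil rats 10 of 22 leukocyte markers rose and 2 fell, beside 11.5% of all probe sets higher and 12.8% lower. The mean leukocyte marker level went from 7.88 (7.53 to 8.34 over arrays) to 8.14 (7.78 to 8.50). In DBCP rats 12 of 22 rose and 0 fell, beside 7.28% of all probe sets higher and 6.19% lower. The levels there were 7.75 (7.45 to 8.05) and 8.00 (7.76 to 8.35). Of 13 epididymal epithelium markers 5 rose and 1 fell in corn oil rats, and the level went from 7.12 (6.90 to 7.37) to 7.32 (6.97 to 7.58). The rises were Atp6v0d2 (0.87), Foxi1 (0.65), Atp6v1b1 (0.41), Aqp9 (0.32) and Cftr (0.17), and Krt14 fell (-0.18). Epcam, Cdh1, Krt8, Krt18 and Krt19 did not pass (-0.03 to 0.11), so a few genes carried most of the shift in this level. In DBCP rats 1 of these 13 markers rose and 0 fell, a share near the 7.28% of all probe sets that passed higher. The epithelium levels there were 7.27 (6.95 to 7.73) and 7.34 (7.03 to 7.76). Late spermatid and sperm markers went the other way, with 9 of 19 falling in corn oil rats and 14 of 19 in DBCP rats, and 0 rising in either.

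**Figure D2:**
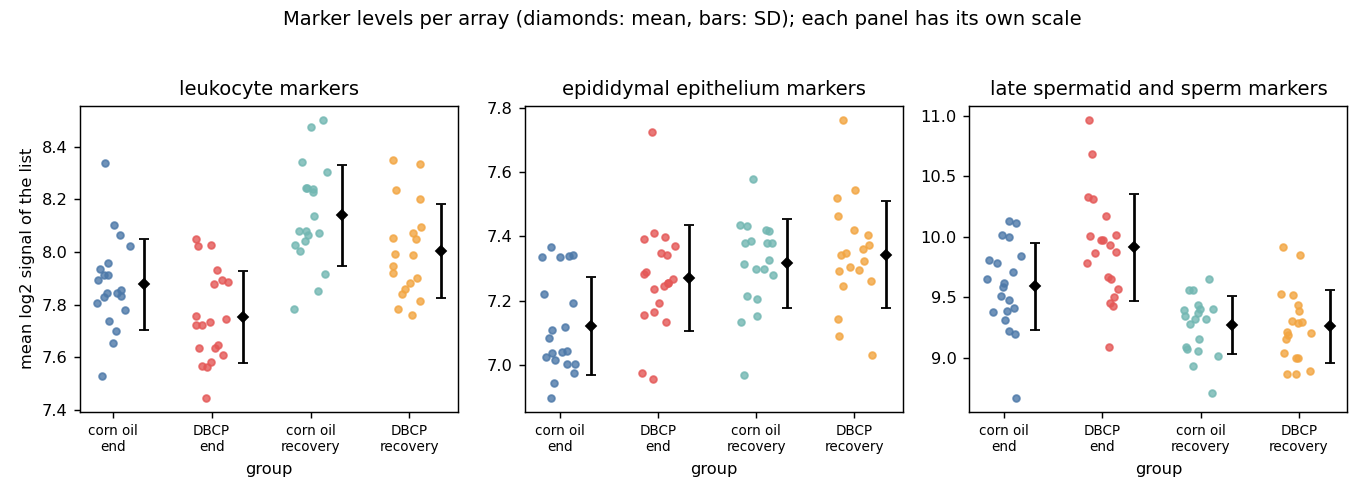
Mean log2 signal per array of 22 leukocyte, 13 epididymal epithelium and 19 late spermatid and sperm markers by group, with group means as diamonds and SD as bars. The leukocyte level averaged 7.88 and 7.75 at the end of exposure, then 8.14 and 8.00 after recovery, while the sperm level averaged 9.59 and 9.91 and then 9.27 and 9.26.

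With the leukocyte level of each array as a covariate Cd59b still passed in corn oil rats (0.71 ± 0.14, limma adjusted p = 0.00117), as did Cd52 (0.58 ± 0.15, 0.017). With the epithelium level Cd59b passed (0.59 ± 0.10, 0.000185), but Cd52 fell short (0.33 ± 0.10, 0.0597). In DBCP rats Cd59b passed with the leukocyte level (0.42 ± 0.13, 0.0214) and with the epithelium level (0.51 ± 0.09, 3.88e-05). With the sperm marker level as covariate the corn oil difference was 1.06 ± 0.13 for Cd59b and 0.80 ± 0.14 for Cd52.

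Cd55, or decay-accelerating factor, is a GPI-anchored protein that breaks up the enzymes which activate the third complement component. It ranged from 6.52 to 7.65 (median 7.02) in corn oil rats at the end of exposure and from 6.37 to 7.64 (median 6.96) after recovery, so the groups covered nearly the same span. The difference was -0.01 ± 0.12 (95% interval -0.26 to 0.23, limma adjusted p = 0.947). In DBCP rats it ran from 6.31 to 8.31 (median 7.12) and then from 6.37 to 8.08 (median 6.84). The difference there was -0.23 ± 0.12 (-0.48 to 0.01, adjusted p = 0.205), with 17 of 19 recovery arrays below the earlier mean and 4 above the earlier median. With the leukocyte level as covariate it passed at -0.51 (adjusted p = 0.00123), and with the sperm marker level it turned to 0.06 (adjusted p = 0.78).

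Cd46, the membrane cofactor protein through which complement fragments are cleaved, is in rodents largely a protein of the sperm acrosome. Its group medians lay between 5.59 and 5.68, and the groups overlapped, from 5.26 to 5.86 in DBCP rats after recovery up to 5.29 to 6.39 in DBCP rats at the end of exposure. The corn oil difference over time was -0.05 ± 0.07 (-0.19 to 0.08, limma adjusted p = 0.604) and that in DBCP rats 0.02 ± 0.07 (-0.12 to 0.15, adjusted p = 0.896).

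Clu encodes clusterin, a secreted chaperone that binds the assembling pore complex and is made by Sertoli cells and epididymal epithelium. It ranged from 6.92 to 7.66 (median 7.10) in corn oil rats at the end of exposure and from 6.92 to 7.83 (median 7.17) after recovery. The difference was 0.08 ± 0.08 (-0.08 to 0.24, limma adjusted p = 0.476). With the sperm marker level as covariate it passed at 0.20 (adjusted p = 0.0266). In DBCP rats the difference over time was -0.17 ± 0.08 (-0.33 to -0.01, adjusted p = 0.155). There 17 of 19 recovery arrays lay below the earlier mean of 7.44, though 6 lay above the earlier median of 7.36. With the sperm marker level as covariate it turned to 0.06 (adjusted p = 0.607).

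**Figure D3:**
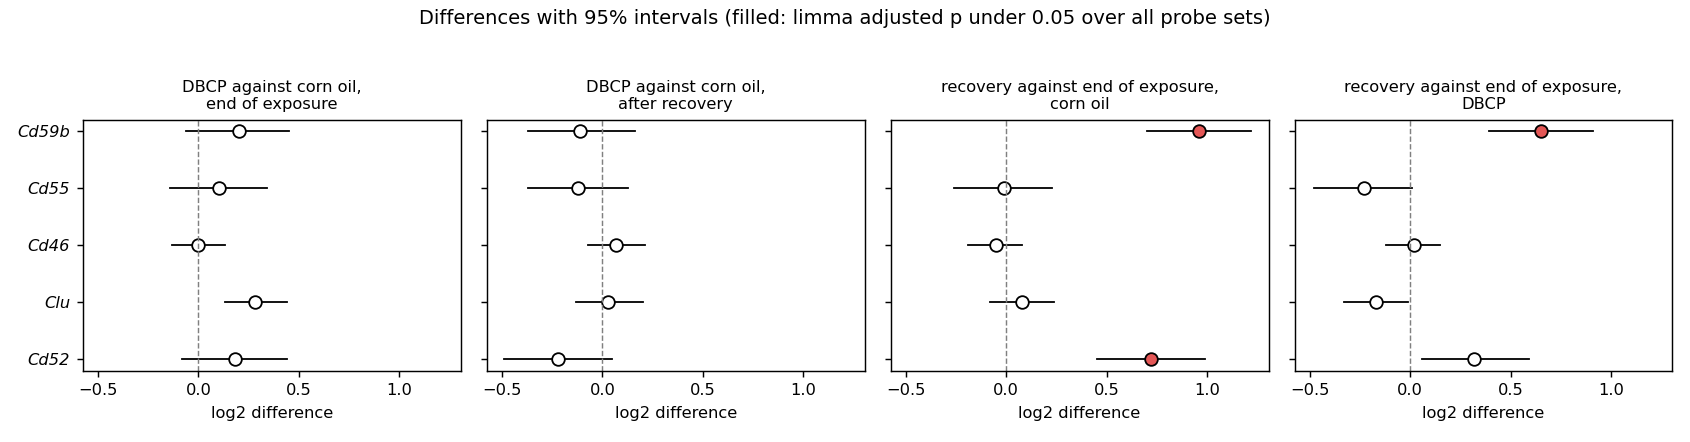
Log2 differences of the 5 genes in 4 comparisons, with 95% intervals as lines and filled circles where the limma adjusted p over all probe sets was under 0.05. The filled circles are Cd59b (0.96) and Cd52 (0.72) in corn oil rats over time and Cd59b (0.65) in DBCP rats over time.

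Straight after dosing, DBCP rats were set against corn oil rats to see how these transcripts stood under the toxicant. By limma 0 of 5 genes passed, as did 0% of probe sets. At an unadjusted p under 0.05 there was 1 gene by limma and 1 by a plain 2-sample t statistic, beside 3386 and 3270 probe sets. The differences ran from 0.00 for Cd46 to 0.28 for Clu, with a median of 0.18 beside -0.02 over all probe sets.

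The gene at an unadjusted p under 0.05 was Clu. It ranged from 7.05 to 8.48 (median 7.36) on the DBCP arrays. Of these 19 of 20 lay above the corn oil median of 7.10 and 17 above the corn oil mean of 7.15. The difference was 0.28 ± 0.08 (0.13 to 0.44), or 1.22-fold, with an unadjusted limma p of 0.000658 and an adjusted p of 0.137. The 3 arrays above every corn oil array were replicates 13 (8.48), 20 (8.20) and 2 (7.95), and limma gave all 3 an array weight under 0.5 (0.25, 0.32 and 0.39). Without the 6 arrays of limma weight under 0.5, which include these 3, the difference was 0.15 ± 0.06 (adjusted p = 1). With the sperm marker level as covariate it was 0.17 ± 0.07 (adjusted p = 1). With the leukocyte level as covariate Clu passed at 0.31 ± 0.08 (adjusted p = 0.0235), a setting in which 1421 probe sets passed. The sperm marker level averaged 9.91 in DBCP rats (9.09 to 10.97) and 9.59 in corn oil rats (8.67 to 10.13), and its part in the result was not tested further.

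Cd59b had a DBCP difference of 0.20 ± 0.13 (-0.06 to 0.45, limma adjusted p = 0.533) and Cd52 one of 0.18 ± 0.13 (-0.08 to 0.44, adjusted p = 0.573). For both, 1 array stood highest, DBCP replicate 20, at 9.96 and 12.43. With the epithelium level as covariate the 2 differences turned to -0.09 and -0.11. Cd55 had 0.10 ± 0.12 (-0.14 to 0.34, adjusted p = 0.729), with replicate 13 highest at 8.31. Cd46 had 0.00 ± 0.07 (-0.13 to 0.13, adjusted p = 0.998), again with replicate 13 highest, at 6.39. Without the 6 arrays of low weight Cd55 stood at -0.03 and Cd46 at -0.02.

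After recovery DBCP and corn oil rats did not separate by the test either. By limma 0 of 5 genes and 0% of probe sets passed. At an unadjusted p under 0.05 there were 0 genes by limma and 0 by the plain t statistic, beside 1084 and 1010 probe sets. Cd52 had the largest difference, -0.22 ± 0.14 (-0.49 to 0.05, limma adjusted p = 0.983), with 15 of 19 DBCP arrays below the corn oil mean. Cd59b had -0.11 ± 0.13, Cd55 -0.12 ± 0.12, Cd46 0.07 ± 0.07 and Clu 0.03 ± 0.08. The adjusted p was 0.983 for Cd59b, Cd55 and Cd46 and 0.989 for Clu.

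The interaction tests whether the DBCP difference itself shifted between the collection times. By limma 0 of 5 genes passed, beside 0% of probe sets. At an unadjusted p under 0.05 there were 2 genes, Clu and Cd52, and 10.9% of probe sets. Cd52 had -0.40 ± 0.19 (-0.77 to -0.02, adjusted p = 0.455) and Clu -0.25 ± 0.12 (-0.48 to -0.02, 0.454). Cd59b had -0.31 ± 0.18 (0.481), Cd55 -0.22 ± 0.17 (0.56) and Cd46 0.07 ± 0.10 (0.743). The rise of Cd52 over time, past the threshold in corn oil rats and short of it in DBCP rats, was therefore not shown to differ between the treatments.

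In order of the group means, Cd59b rose from 8.35 in corn oil rats to 8.54 in DBCP rats at the end of exposure, then stood at 9.20 in DBCP and 9.31 in corn oil rats after recovery. The step between the collection times was the only neighbouring step of Cd59b that passed. Cd52 kept the same order, at 11.30, 11.48, 11.80 and 12.02, and none of its 3 neighbouring steps passed (limma adjusted p between 0.0956 and 0.983). The wider steps did pass, with DBCP rats after recovery 0.50 ± 0.13 above corn oil rats at the end of exposure (adjusted p = 0.00693). Clu ran from 7.15 in corn oil rats at the end of exposure through 7.23 and 7.27 after recovery in corn oil and DBCP rats to 7.44 in DBCP rats at the end of exposure. No step of Clu, Cd55 or Cd46 passed. The group means of Cd55 spanned 0.23 and those of Cd46 0.07, less than the largest SD within a group (0.47 and 0.26).

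From array to array, Cd59b and Cd52 moved together. After removal of the group means their Pearson r over 78 arrays was 0.83 and Spearman's rho 0.85. Both had a permutation p of 1e-05, the smallest that 100000 resamples can give, and an adjusted p of 1e-04 over the 10 pairs of genes. The correlation was 0.85 and 0.88 in corn oil and DBCP rats at the end of exposure, then 0.75 and 0.84 after recovery. It was 0.84 in replicate numbers 1 to 10 and 0.81 in 11 to 20, and 0.83 without the 2 arrays farthest from the median of Cd59b.

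Of the other pairs only Cd55 and Clu passed by Pearson's r, at 0.35 (permutation adjusted p = 0.0249), with a rho of 0.26 (0.064). Without the 2 arrays farthest from the median of Cd55 the r was 0.22 and did not pass (adjusted p = 0.229), so the call rests on those arrays. Within groups it ran from -0.10 in corn oil rats to 0.59 in DBCP rats, both at the end of exposure. Cd46 correlated with no other member beyond an r of 0.17 in size (0.35 with Cd55 under quantile normalization, where it passed).

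**Figure D4:**
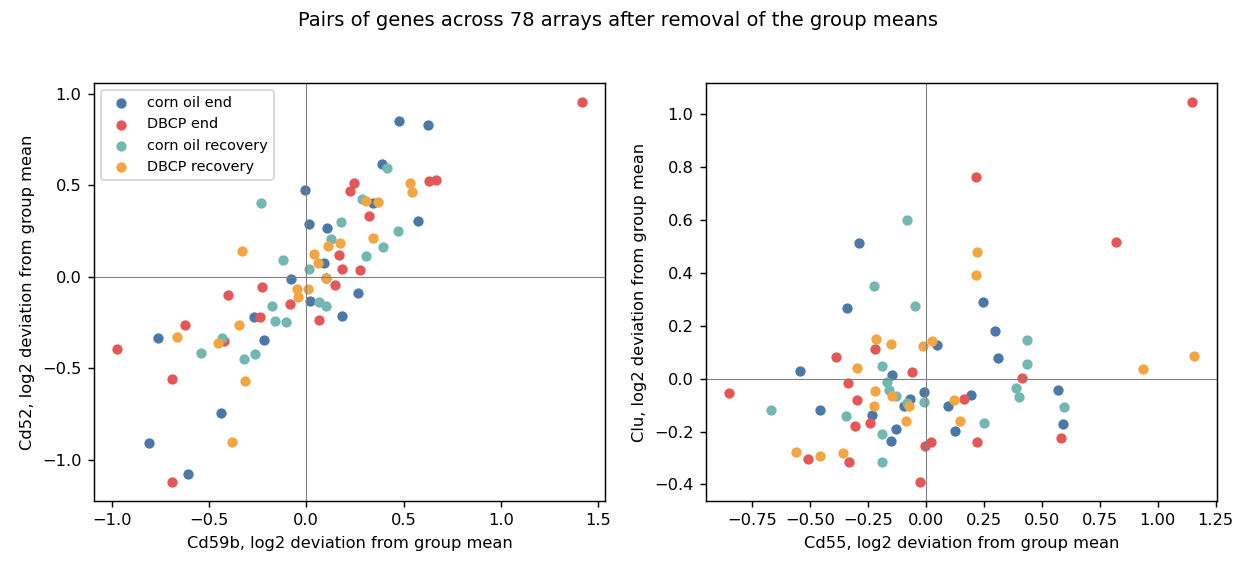
Deviations of each array from its group mean for Cd59b against Cd52 (left) and Cd55 against Clu (right), on the log2 scale and coloured by group. The left panel forms a band (r = 0.83), with DBCP end-of-exposure replicate 20 at the upper right; the right panel is a cloud (r = 0.35) with a few distant arrays.

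Cd59b and Cd52 also followed the epithelium markers across arrays, each with an r of 0.72 after removal of the group means (rho 0.67 and 0.71, permutation adjusted p = 8.33e-05 over 25 tests). Within the groups this r lay between 0.64 and 0.79 for Cd59b and between 0.66 and 0.77 for Cd52. With the leukocyte level r was 0.41 for Cd59b (permutation adjusted p = 0.0013) and 0.22 for Cd52 (0.128). Cd55 followed the leukocyte level instead (r = 0.51, rho 0.47, permutation adjusted p = 8.33e-05), from 0.23 in DBCP rats at the end of exposure to 0.83 in DBCP rats after recovery. It also correlated with the sperm marker level (r = 0.39, rho 0.36, permutation adjusted p = 0.00296). Clu correlated with the sperm marker level by Pearson's r (0.48, permutation adjusted p = 0.000375), with a rho of 0.26 that did not pass (0.0739). Cd46 passed with none of the 5 marker lists. Cd52 had a negative rho with the stroma markers that passed (-0.32, permutation adjusted p = 0.0267), with an r of -0.24 that did not (0.124). Without the 2 farthest arrays these r values were 0.67 and 0.70 for the epithelium markers, 0.50 for Cd55 with leukocytes, 0.36 for Cd55 with sperm markers and 0.35 for Clu. All values share the array's scale and RNA composition.

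**Figure D5:**
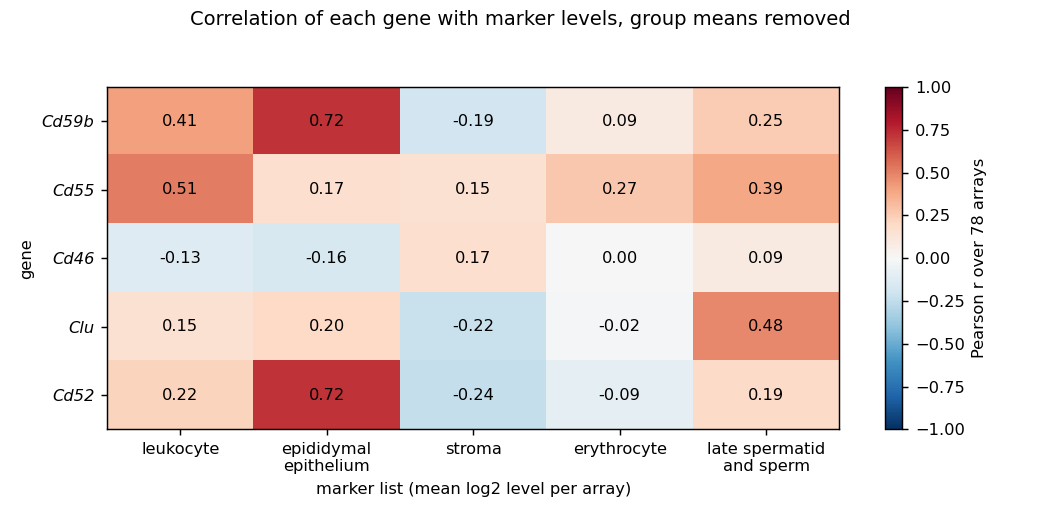
Pearson r over 78 arrays, group means removed, between each of the 5 genes (rows) and the mean level of 5 marker lists (columns), with blue for negative and red for positive values. Cd59b and Cd52 have their highest r with the epididymal epithelium markers (0.72 each), Cd55 with the leukocyte markers (0.51) and Clu with the sperm markers (0.48).

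The genes whose deviations were most like those of each member are given by Pearson r over the same 78 arrays, with no test because they were picked from the whole array. For Cd52 they were the beta-defensin Defb43 (0.92), Ptgds, the lipocalin-type prostaglandin D synthase (0.92), and the serpin family gene Serpina16 (0.91). For Cd59b they were Emb, the immunoglobulin-family protein embigin (0.90), Aldh6a1, a mitochondrial dehydrogenase of valine breakdown (0.90), and Cyb5b, a cytochrome b5 of the mitochondrial outer membrane (0.89). These 6 genes rose over time in corn oil rats, by between 0.69 and 1.25. For Cd55 they were Egr1, an immediate early transcription factor (0.72), Ano6, a phospholipid scramblase (0.72), and Ccnl1, cyclin L1 (0.71). For Clu they were Optn, an autophagy receptor (0.71, rho 0.48), Rb1cc1, of autophagy initiation (0.69, rho 0.44), and Tmem97 (0.69, rho 0.46). For Cd46 they were Tgap1l6 (0.61), Agmo, an ether lipid enzyme (0.58), and Klhl28 (0.57).

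The rest of the complement system held rises and falls over time, read beside the 24.3% of all probe sets that passed in corn oil rats and the 13.5% in DBCP rats. Of 27 complement components and receptors on the array, 1 rose and 2 fell in corn oil rats, with a median difference of 0.01 beside -0.04 over all probe sets. C1qc, a chain of the first component, rose by 0.37 ± 0.08 (limma adjusted p = 0.000274). Mbl1, a mannose-binding lectin, differed by -0.19 ± 0.06 (0.0102) and C5ar2, a receptor for the fifth component's fragment, by -0.12 ± 0.04 (0.0186). In DBCP rats 2 rose and 0 fell. Of 8 other complement regulators 1 rose and 2 fell in corn oil rats. Cr1l, the rodent regulator Crry, rose by 0.17 ± 0.06 (0.0299) and, in DBCP rats, by 0.24 ± 0.06 (0.00307). Cfi, the protease factor I, had -0.14 ± 0.05 (0.0227), and Vtn, vitronectin, -0.14 ± 0.05 (0.038). For DBCP against corn oil 0 members of either list passed at either time. At an unadjusted p under 0.05 by limma there were 6 of 27 components at the end of exposure, then 2 after recovery, and 0 of 8 regulators at both times, beside 11.6% and 3.71% of all probe sets. At the end of exposure 3 of the 27 component differences were above 0, with a median of -0.08 beside -0.02 over all probe sets. The leukocyte markers, which share Itgam (-0.25) and Itgb2 (-0.22) with this list, had 2 of 22 above 0 and a median of -0.11. A link between these lists was not tested.

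Genes that build and attach GPI anchors had 5 rises and 1 fall among 23 in corn oil rats, beside 11.5% of all probe sets higher and 12.8% lower. Taken in either direction that share is near the 24.3% of all probe sets that passed. The median difference was 0.06 beside -0.04 over all probe sets. Pgap2, which remodels the anchor's lipid, rose by 0.37 ± 0.11 (limma adjusted p = 0.00898). Pigu (0.25 ± 0.07, 0.00821) and Pigt (0.24 ± 0.09, 0.0413), subunits of the enzyme that attaches it, rose too. Of the other subunits of that enzyme, named after their values were seen, Gpaa1 fell (-0.14 ± 0.04, 0.0124), and Pigk (0.06 ± 0.06) and Pigs (0.09 ± 0.06) did not pass. In DBCP rats 2 of the 23 rose and 0 fell. Of 10 other GPI-anchored sperm surface proteins 0 rose and 1 fell in corn oil rats, the protease gene Prss21 (-0.14 ± 0.03, 0.00152), and 2 fell in DBCP rats. These counts stand beside 24.3% of all probe sets passing in corn oil rats and 13.5% in DBCP rats.

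Among 23 epididymal proteins that coat or ripen sperm, 2 rose and 4 fell in corn oil rats, with a median of 0.04. That share is near the 24.3% of all probe sets that passed. Rnase12 rose by 0.53 ± 0.17 (limma adjusted p = 0.0157), while Cst8, a cystatin, had -0.44 ± 0.15 (0.0239) and Crisp1, a sperm-coating cysteine-rich protein, -0.43 ± 0.16 (0.0394). In DBCP rats 0 rose and 2 fell, beside 13.5% of all probe sets passing in either direction. Cst8 differed there by -0.91 ± 0.15 (4.69e-06). Of the late spermatid and sperm markers 14 of 19 fell in the same rats, and the cell of origin of the Cst8 signal was not tested. For DBCP against corn oil by limma 0 members of the anchor, surface and coating lists passed at either time. At an unadjusted p under 0.05 there were 2 of 23, 2 of 10 and 3 of 23 at the end of exposure, then 1, 1 and 0 after recovery, beside the same 11.6% and 3.71% of all probe sets.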

How the data were processed

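RNA of cauda epididymal sperm was measured on 78 arrays in 4 groups. The values used are the log2 expression values the authors deposited for 29214 probe sets. No source used here gives their background correction or normalization. The submitters' processing notes name limma, with no version. Per the labels' protocols, sperm were released into buffer, pelleted, treated briefly with an ammonium chloride lysis buffer and extracted with a column kit. Array medians ran from 6.55 to 6.75, and there were 0 missing values. The number of arrays limits the precision.

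Groups were taken from the sample labels. One limma fit (version 3.58.1, R 4.3.3) with 4 group means covered all 78 arrays and all probe sets. Adjustment (Benjamini-Hochberg) covered all probe sets, and 0.05 was the threshold. The fit was tested on simulated data. A covariate was the mean log2 level of a marker list on each array. Correlations used deviations from the group means, with 100000 two-sided permutations within groups.

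The genes named are the 5 members, the 3 genes most like each by Pearson r, and of each pathway list the 3 members with the largest difference among those passing in corn oil rats over time. Symbols came from the platform annotation, which gave 15310 probe sets 1 symbol, 323 several and 13581 none. Members and lists were chosen with earlier results of these data known. The alternatives covered scaling, filtering, weights, replicate numbers, marker covariates, left-out arrays and the test.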

Additional observations from a re-analysis of the deposited data

How the results depend on the processing

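Of 410 alternative values for the 5 genes, 376 kept direction and side of the threshold, 3 lost the call, 8 gained one and 23 changed sign. The cause was not tested. The calls lost were Cd52 in corn oil rats over time (0.49 in numbers 11 to 20, 0.33 with the epithelium covariate) and Cd59b in DBCP rats over time (0.43 in numbers 11 to 20). Calls gained in DBCP rats over time were Cd52 by quantile normalization (0.37), array weights (0.35), the sperm covariate (0.48) and an adjusted p of 0.10 (0.32), and Cd55 with the leukocyte covariate (-0.51). Clu gained one over time in corn oil rats with the sperm covariate (0.20) and for DBCP at the end of exposure with the leukocyte covariate (0.31).

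Sign changes were all in differences that did not pass. In the DBCP comparison at the end of exposure Cd46 was -0.03 with array weights and in numbers 1 to 10, and -0.02 with the leukocyte or sperm covariate and without the 6 arrays of low weight. Cd55 was -0.01, -0.04 and -0.03 with array weights, the sperm covariate and without those arrays, and Cd59b -0.09 and Cd52 -0.11 with the epithelium covariate. After recovery Clu was -0.01 with array weights, -0.04 in numbers 11 to 20 and -0.02 without the 6 arrays, and with the leukocyte covariate Cd59b was 0.02 and Cd55 0.03. Over time in corn oil rats Cd55 was 0.02 after median centring, 0.11 in numbers 11 to 20 and 0.13 with the sperm covariate, and Cd46 0.05 in numbers 1 to 10. Over time in DBCP rats Cd46 was -0.02 by quantile normalization and -0.07 in numbers 11 to 20, and with the sperm covariate Cd55 and Clu were each 0.06.

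Leaving out each array in turn changed the sign or call of 4 results: Cd46 for DBCP at the end of exposure (-0.04 to 0.02), Cd55 over time in corn oil rats (-0.05 to 0.02), and Cd46 (0.00 to 0.06) and Cd52 (0.27 to 0.37) over time in DBCP rats. With quantile normalization the correlation of Cd59b with Cd46 was 0.08, of Cd55 with Cd46 0.35 and of Cd55 with Clu 0.28. Without the 2 farthest arrays Cd55 with Clu was 0.22 and Cd46 with Clu -0.09.

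With the replicate number as a block, Cd52 passed over time in DBCP rats (0.35, limma adjusted p = 0.0322), and no other call among the 5 genes changed. Over all probe sets same-numbered samples did not in general deviate together (median correlation between -0.08 and 0.06, single pairs from -0.49 to 0.57). The numbers are therefore not taken as a pairing. At the end of exposure, however, replicate 7 was lowest for Cd59b in both corn oil and DBCP rats, and replicate 3 for Cd52. After recovery the lowest numbers differed (18 and 13 for Cd59b, 16 and 6 for Cd52). Whether these genes followed the replicate number was not tested. Probe sets passing over time ranged from 385 (numbers 11 to 20) to 13783 (sperm covariate) in corn oil rats, beside 7108, and from 505 to 7994 in DBCP rats under the same settings, beside 3933. For DBCP at the end of exposure 1421 passed with the leukocyte covariate and 1 with 1 probe set per gene, beside 0. A second probe set per gene could not be tried, since each member has 1, and the filter on brighter probe sets left out Cd46.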
